A study of Mus musculus with 6 samples.

Results

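The 34 genes described here carry out or regulate DNA replication and cell division: 11 replication and nucleotide supply genes, 8 cyclins, kinases and regulators of the G1 and S phases, 14 genes of G2 and mitosis, and the histone variant gene H2afz. They were chosen by name and role, and all 34 had a row among the 35598 gene identifiers of each table. Bulk RNA sequencing was done on CNS-associated macrophages (CAMs), the macrophages at the borders of the brain, sorted from whole brains of male C57BL/6 mice as CD3-, CD11b+, CD45+ and CD206+ cells. There were 3 libraries from young mice, aged 2 months, and 3 from aged mice, aged 18 months, with no treatment or genetic change named for either group. The labels do not say whether a library came from 1 animal or a pool, or whether libraries came from separate animals, so p-values measure only the spread between these libraries. All were made with a low-input kit that amplifies cDNA by PCR and does not mark strand.

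Cells enter the cycle when D-type cyclins activate Cdk4 and Cdk6, which release E2F factors from the retinoblastoma proteins, and E2F factors then switch on genes for DNA replication. Genes of G2 and mitosis come on later, and many of their promoters hold a cell cycle homology region (CHR) with CCAAT boxes nearby. Border macrophages are mostly long-lived cells that maintain themselves with little division in the healthy brain, although those of the choroid plexus are partly replaced from blood monocytes. In bulk RNA a gene of the cell cycle can be low because few cells divide or because each cell holds little of its RNA, and these cannot be told apart here.

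The results are ordered by role, and the promoter windows of replication and mitosis genes differed most in CHR matches, less in E2F matches and little in CCAAT. RefSeq promoter windows on GRCm38.p6, from 250 bases before to 50 bases after an annotated start, were matched for 26 of the 34 genes, which gave 30 windows, and the 2 Bub3 windows overlap each other. The motifs were searched on both strands: E2F as TTTCCCGC, TTTGGCGC, TTTCGCGC or TTTGCCGC, the CHR as TTTGAA, and CCAAT. An E2F match was found in 4 of 10 replication windows, 1 of 8 G1 and S phase windows and 1 of 12 mitosis windows, against 2.26% of all 32851 windows of the same length. A CHR match was found in 9 of 12 mitosis windows, 1 of 10 replication windows and 1 of 8 G1 and S phase windows, against 17.9% of all windows. CCAAT was found in 11 of 12 mitosis, 9 of 10 replication and 3 of 8 G1 and S phase windows, against 37.4% of all windows. An E2F match can share letters with a CCAAT match, as in 1 Mcm7 window, and a match describes letters and not a binding site.

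The windows below show 2 of the 4 replication windows with an E2F match and 3 of the 9 mitosis windows with a CHR match. Both windows of Skp2, the gene with the largest fitted difference between ages, are also shown. They lie on the minus strand and are written 5′ to 3′ with motif matches in capitals, at chr1:20820263-20820562 (Mcm3), chr1:128359656-128359955 (Mcm6), chr10:69352863-69353162 (Cdk1), chr7:135716330-135716629 (Mki67), chr11:99024140-99024439 (Top2a), chr15:9140405-9140704 (Skp2, first window) and chr15:9155376-9155675 (Skp2, second window).
Mcm3: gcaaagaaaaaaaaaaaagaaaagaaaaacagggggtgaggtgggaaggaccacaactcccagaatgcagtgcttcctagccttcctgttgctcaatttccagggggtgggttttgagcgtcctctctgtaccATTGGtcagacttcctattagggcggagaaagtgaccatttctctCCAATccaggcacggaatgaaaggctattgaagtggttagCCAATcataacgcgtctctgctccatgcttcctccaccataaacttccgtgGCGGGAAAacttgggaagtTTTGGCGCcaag
Mcm6: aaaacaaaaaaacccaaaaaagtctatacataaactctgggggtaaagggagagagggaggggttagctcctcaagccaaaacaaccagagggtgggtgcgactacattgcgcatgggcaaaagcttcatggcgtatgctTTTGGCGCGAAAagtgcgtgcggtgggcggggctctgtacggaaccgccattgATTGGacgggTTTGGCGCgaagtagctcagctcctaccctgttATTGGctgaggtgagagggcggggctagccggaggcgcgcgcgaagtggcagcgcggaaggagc
Cdk1: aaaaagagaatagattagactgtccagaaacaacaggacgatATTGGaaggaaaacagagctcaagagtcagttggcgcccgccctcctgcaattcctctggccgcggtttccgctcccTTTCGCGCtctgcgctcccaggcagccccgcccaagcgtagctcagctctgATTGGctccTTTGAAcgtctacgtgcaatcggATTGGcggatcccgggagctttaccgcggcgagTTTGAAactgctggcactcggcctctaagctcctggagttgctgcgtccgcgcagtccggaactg
Mki67: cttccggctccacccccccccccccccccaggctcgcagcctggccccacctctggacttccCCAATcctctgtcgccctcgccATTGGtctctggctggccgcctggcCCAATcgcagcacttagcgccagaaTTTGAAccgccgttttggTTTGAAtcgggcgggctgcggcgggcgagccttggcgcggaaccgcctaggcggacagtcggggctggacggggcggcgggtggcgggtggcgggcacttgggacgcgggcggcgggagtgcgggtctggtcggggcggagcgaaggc
Top2a: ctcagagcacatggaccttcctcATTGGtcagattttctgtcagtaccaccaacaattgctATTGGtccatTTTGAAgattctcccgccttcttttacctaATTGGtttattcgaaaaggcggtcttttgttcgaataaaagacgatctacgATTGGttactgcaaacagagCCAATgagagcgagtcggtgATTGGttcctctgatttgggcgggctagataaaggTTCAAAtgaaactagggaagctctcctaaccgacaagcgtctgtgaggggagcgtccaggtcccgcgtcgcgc
Skp2, first window: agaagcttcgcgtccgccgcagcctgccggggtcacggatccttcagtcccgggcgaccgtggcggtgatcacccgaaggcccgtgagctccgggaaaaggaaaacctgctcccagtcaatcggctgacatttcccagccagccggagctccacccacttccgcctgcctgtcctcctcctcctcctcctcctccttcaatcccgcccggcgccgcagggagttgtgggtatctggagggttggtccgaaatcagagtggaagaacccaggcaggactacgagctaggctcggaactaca
Skp2, second window: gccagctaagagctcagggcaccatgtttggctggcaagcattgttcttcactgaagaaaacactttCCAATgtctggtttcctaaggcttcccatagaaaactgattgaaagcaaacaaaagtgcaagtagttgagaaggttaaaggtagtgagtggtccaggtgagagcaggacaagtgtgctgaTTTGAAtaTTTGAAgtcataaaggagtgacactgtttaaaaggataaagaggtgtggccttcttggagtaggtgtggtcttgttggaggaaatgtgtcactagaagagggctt

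Mcm3 and Mcm6 held E2F and CCAAT matches and no CHR match. Mki67 and Top2a held CHR and CCAAT matches and no E2F match, and Cdk1 held all 3. The first Skp2 window held none of them, and the second, at the start of the GENCODE gene, held CHR and CCAAT matches. The map of motif positions gives the other windows.

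**Figure D1:**
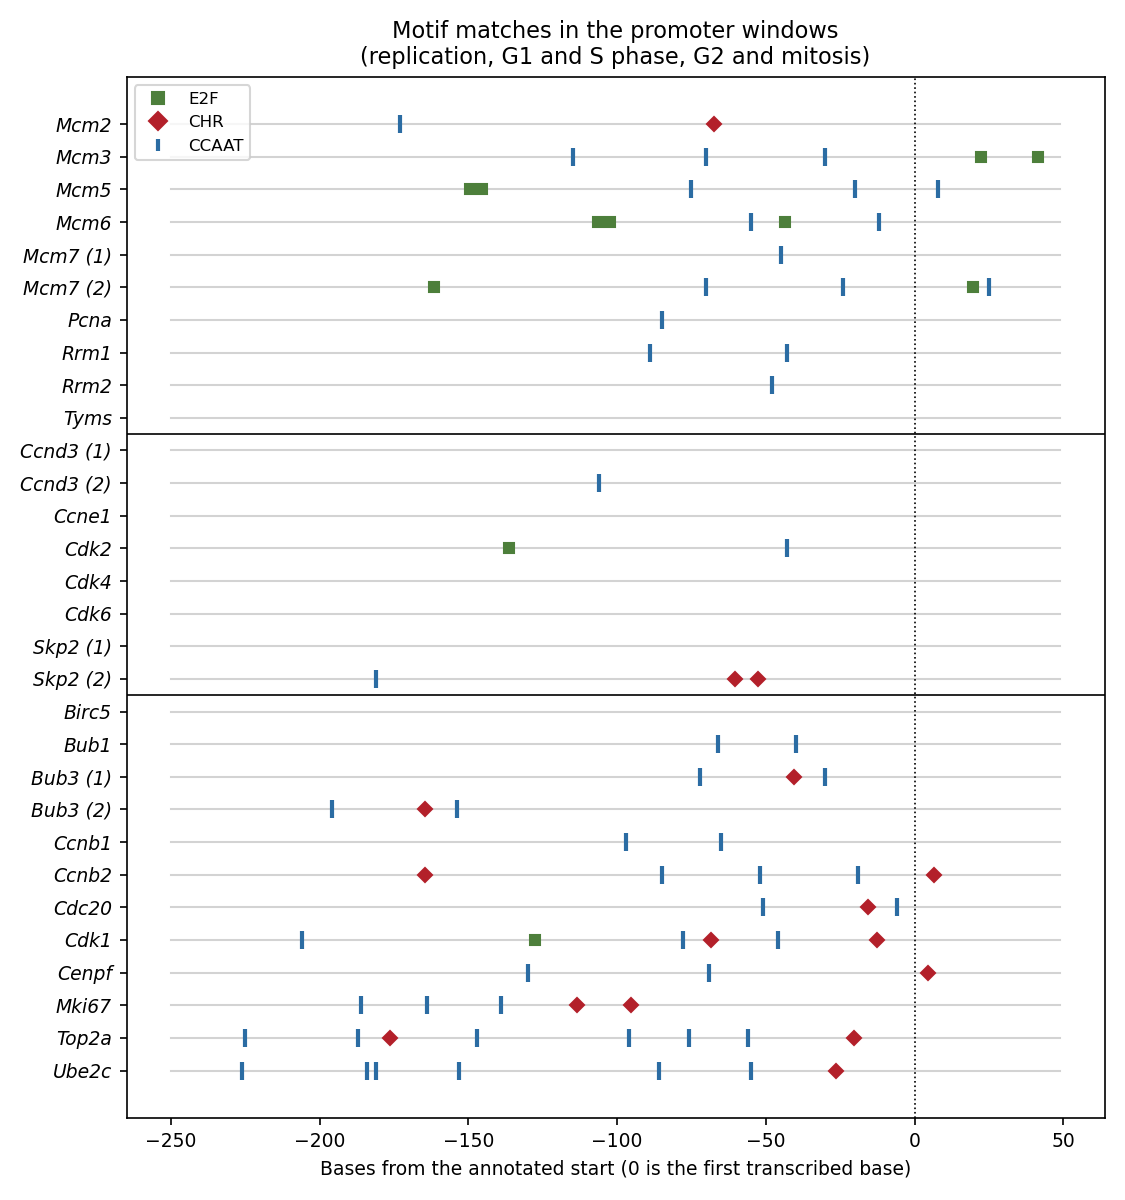
Motif matches in the 30 RefSeq promoter windows of 26 genes, by bases from the annotated start (horizontal axis), with a line for each window and a mark for each match. Green squares (E2F) lie in 4 of 10 replication windows and red diamonds (CHR) in 9 of 12 mitosis windows.

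Libraries held 26605079 to 33306121 counts, and edgeR's quasi-likelihood test with Benjamini-Hochberg adjustment covered 10661 genes. It called 1 gene higher in aged libraries (0.00938%) and 0 lower (0%), at an adjusted p under 0.05. Mrc1 encodes the sorted protein CD206. It was at 2674 to 2940 CPM (counts scaled to library size by TMM) in young libraries and 1182 to 2345 CPM in aged libraries. Every aged library was thus below every young one for this gene. Replicates varied widely: the median biological coefficient of variation was 129% for genes under a mean of 50 CPM and 48.2% for genes at or above it. Most of the cell cycle genes were in the first class, since 5 of 34 reached a mean of 50 CPM.

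Of the 34 cell cycle genes, 27 passed the filter on low counts and 0 were called in either direction by edgeR, with a smallest adjusted p of 0.515. An unadjusted p under 0.05 was reached by 5 with higher aged levels (Rrm2b, Aurkb, Mcm4, Ccnd2 and Cdk4) and 1 with a lower one (Skp2). These are 22.2% of the 27, against 5.67% of all genes tested (3.63% higher, 2.04% lower). The DESeq2 Wald test, run on the same 10661 genes, gave an adjusted p for 9634 of them. Tyms, Birc5 and Aurkb were among the genes without one. It called Rrm2b and Mcm4 higher and Skp2 lower, against a background of 1.21% higher and 0.426% lower of the 9634. Without its low-count filter, a setting added after seeing the data, DESeq2 also called Aurkb higher (2.19% higher and 1.52% lower over all genes). limma-voom and limma-trend on TPM called 0 cell cycle genes. Over all genes limma-voom also called 0, and limma-trend called 1 higher and 0 lower. With no filter edgeR tested all 34 and called 0 of them (background 0.225% higher, 0.0485% lower). With a stricter minimum, a mean over libraries of 50 CPM or more, it tested 5 and called 0 (0.868% higher, 0.274% lower).

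Every aged library lay above every young one for 4 of the 27 (14.8%, against 7.54% of all genes tested) and below for 1 (3.70%, against 7.19%). In either direction this was 18.5% against 14.7%. The fitted difference was above 0 for 16 of 27 (59.3%, against 49.3% of all genes tested), and the median fitted log2 fold change, aged minus young, was 0.86, against -0.02 for all genes tested. That median changed with the libraries and genes tested. It was -0.16 without aged replicate 3, where 30 cell cycle genes passed the filter, and 0.38 without young replicate 2, where 29 did. Over the 5 genes at 50 CPM or more it was -0.11. Since the genes tested changed along with the libraries, the part of each library in these shifts was not tested.

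**Figure D2:**
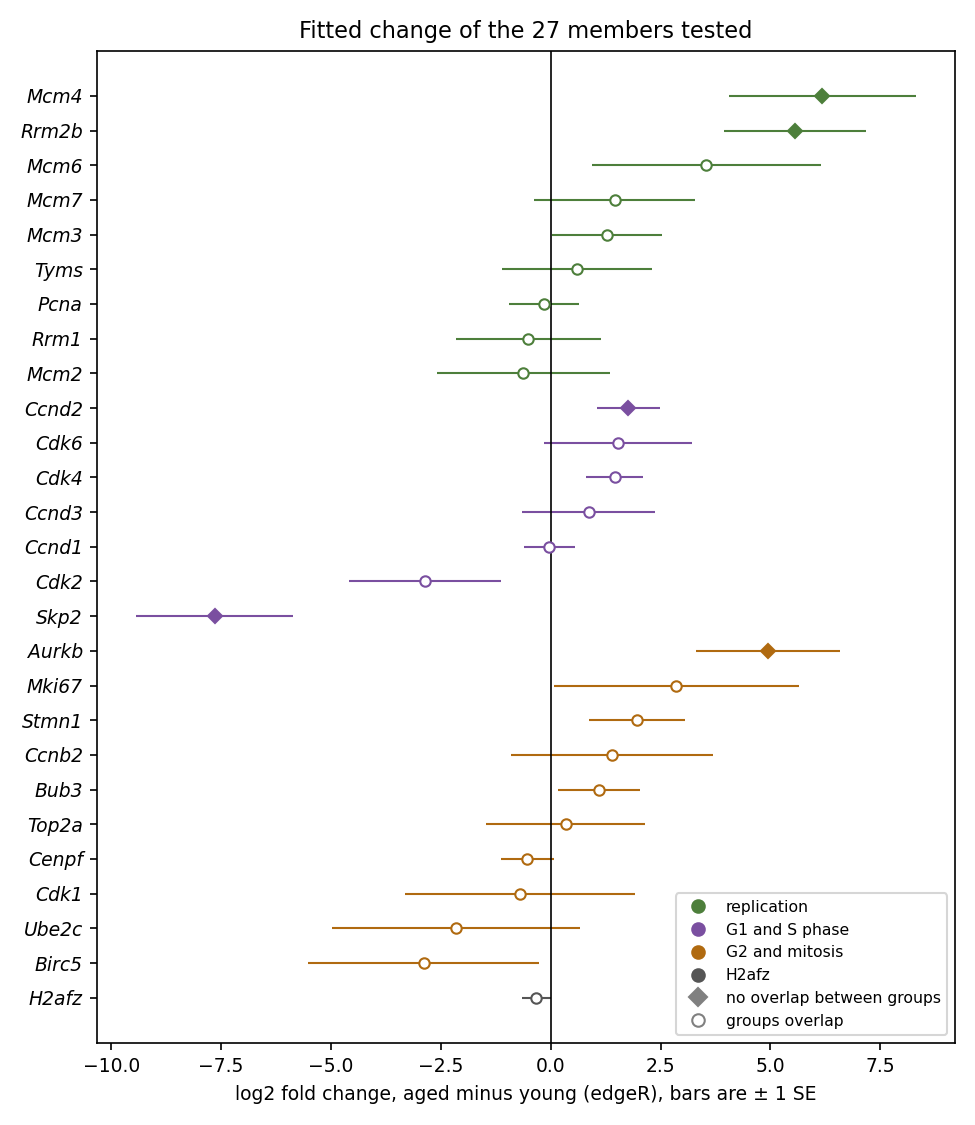
Fitted log2 fold change, aged minus young, of the 27 genes tested by edgeR, with bars of 1 SE and colours for role. Filled diamonds are the 5 genes whose groups do not overlap, which run from Skp2 at -7.65 to Mcm4 at 6.19.

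The 11 replication and nucleotide supply genes showed 2 large differences between ages, in Rrm2b and Mcm4, beside 9 genes whose groups overlapped or whose counts were too low to test. Of the 9 tested, 0 were called, 6 had a fitted difference above 0, and the median was 1.28.

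Rrm2b encodes the small subunit of ribonucleotide reductase that is induced by p53 and supplies nucleotides for DNA repair and mitochondrial DNA outside S phase. The gene (ENSMUSG00000022292.16, mm10 chromosome 15, 37923952 to 37961318) was at 0.288, 0.484 and 0.322 CPM in young libraries and 12, 19.7 and 20.8 CPM in aged libraries. All 3 aged libraries were high and the groups were far apart. The counts were 9, 13 and 9 against 344, 760 and 588, and the aged level was 49.1-fold the young one over pooled counts (95% exact interval 34.5 to 72.5, counting error only). The fitted log2 fold change was 5.57 (SE 1.62, unadjusted p = 0.00668, adjusted p = 0.619 by edgeR). DESeq2 gave an adjusted p of 0.000175, and the adjusted p ran from 3.11e-13 to 0.930 over 14 alternative settings. An antisense transcript, Gm49085, overlaps its exons and had 960 counts over all libraries against 1723 for Rrm2b, and without strand their shared reads cannot be told apart.

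The partners of Rrm2b in nucleotide supply did not follow this pattern of values. Rrm1, the large subunit that works with either small subunit, ranged from 4.91 to 9.86 CPM in young libraries and from 0.556 to 9.47 CPM in aged ones. Rrm2, the small subunit of S phase, was too low to test, with 11, 1 and 130 counts in young libraries and 1, 0 and 0 in aged libraries. Its scaled values do not overlap, but young replicate 2 and aged replicate 1 each held 1 count. Tyms, thymidylate synthase, was at 42.5, 0.558 and 0.143 CPM in young libraries and 13.0, 13.3 and 39.2 CPM in aged libraries. One young library was thus the highest of all 6, and the fitted log2 fold change of 0.60 (SE 1.70) became -0.14 without aged replicate 3.

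Mcm4 encodes a subunit of the MCM helicase, the ring that opens DNA at replication forks. The gene (ENSMUSG00000022673.5, mm10 chromosome 16, 15623897 to 15637400) was at 0.128, 0.0372 and 0.215 CPM in young libraries and 1.81, 8.29 and 18.5 CPM in aged libraries. The young libraries held only 4, 1 and 6 counts, against 52, 320 and 523, and the groups did not overlap. The pooled aged level was 73.2-fold the young one (95% exact interval 40.7 to 147, counting error only), and the fitted log2 fold change was 6.19 (SE 2.12, unadjusted p = 0.0162, adjusted p = 0.707 by edgeR). DESeq2 gave an adjusted p of 0.0133, and the adjusted p ran from 0.000155 to 0.952 over 14 settings.

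The helicase acts as a ring of 6 MCM proteins. Mcm3 and Mcm7 shared their highest library, aged replicate 3, with Mcm4, while Mcm6 was highest in aged replicate 1, Mcm5 in aged replicate 2 and Mcm2 in young replicate 3. Mcm6 was at 0.320, 0 and 3.58 CPM in young libraries and 33.0, 12.6 and 0 CPM in aged libraries, so that aged replicate 3, the highest for Mcm4, had no count. Mcm3 was at 6.34, 9.86 and 4.40 CPM in young libraries and 6.57, 13.7 and 29.8 CPM in aged libraries, which overlap. Mcm7 was at 0.256, 2.05 and 9.80 CPM in young libraries and 2.92, 2.23 and 28.1 CPM in aged libraries. Its fitted log2 fold change of 1.46 (SE 1.84) became -0.64 without aged replicate 3, and Cops6, which overlaps it on the opposite strand, had 12357 counts against 1302. Mcm2 was at 0, 14.2 and 22.7 CPM in young libraries and 8.13, 1.40 and 14.5 CPM in aged libraries, with the higher mean in the young group. Mcm5 was not tested: aged replicate 2 held 225 counts and the other libraries 0 to 3.

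Pcna, the sliding clamp of replication and repair, was the most abundant of these genes at 27.4 TPM (an abundance that corrects for transcript length) over 6 libraries. It was at 15.3, 30.9 and 161 CPM in young libraries and 77.6, 44.7 and 63.9 CPM in aged libraries. Young replicate 3 was the highest, and the groups overlapped. The fitted log2 fold change of -0.16 (SE 0.80) became 1.43 without young replicate 3 and was 0.51 with the replicate number as a block.

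**Figure D3:**
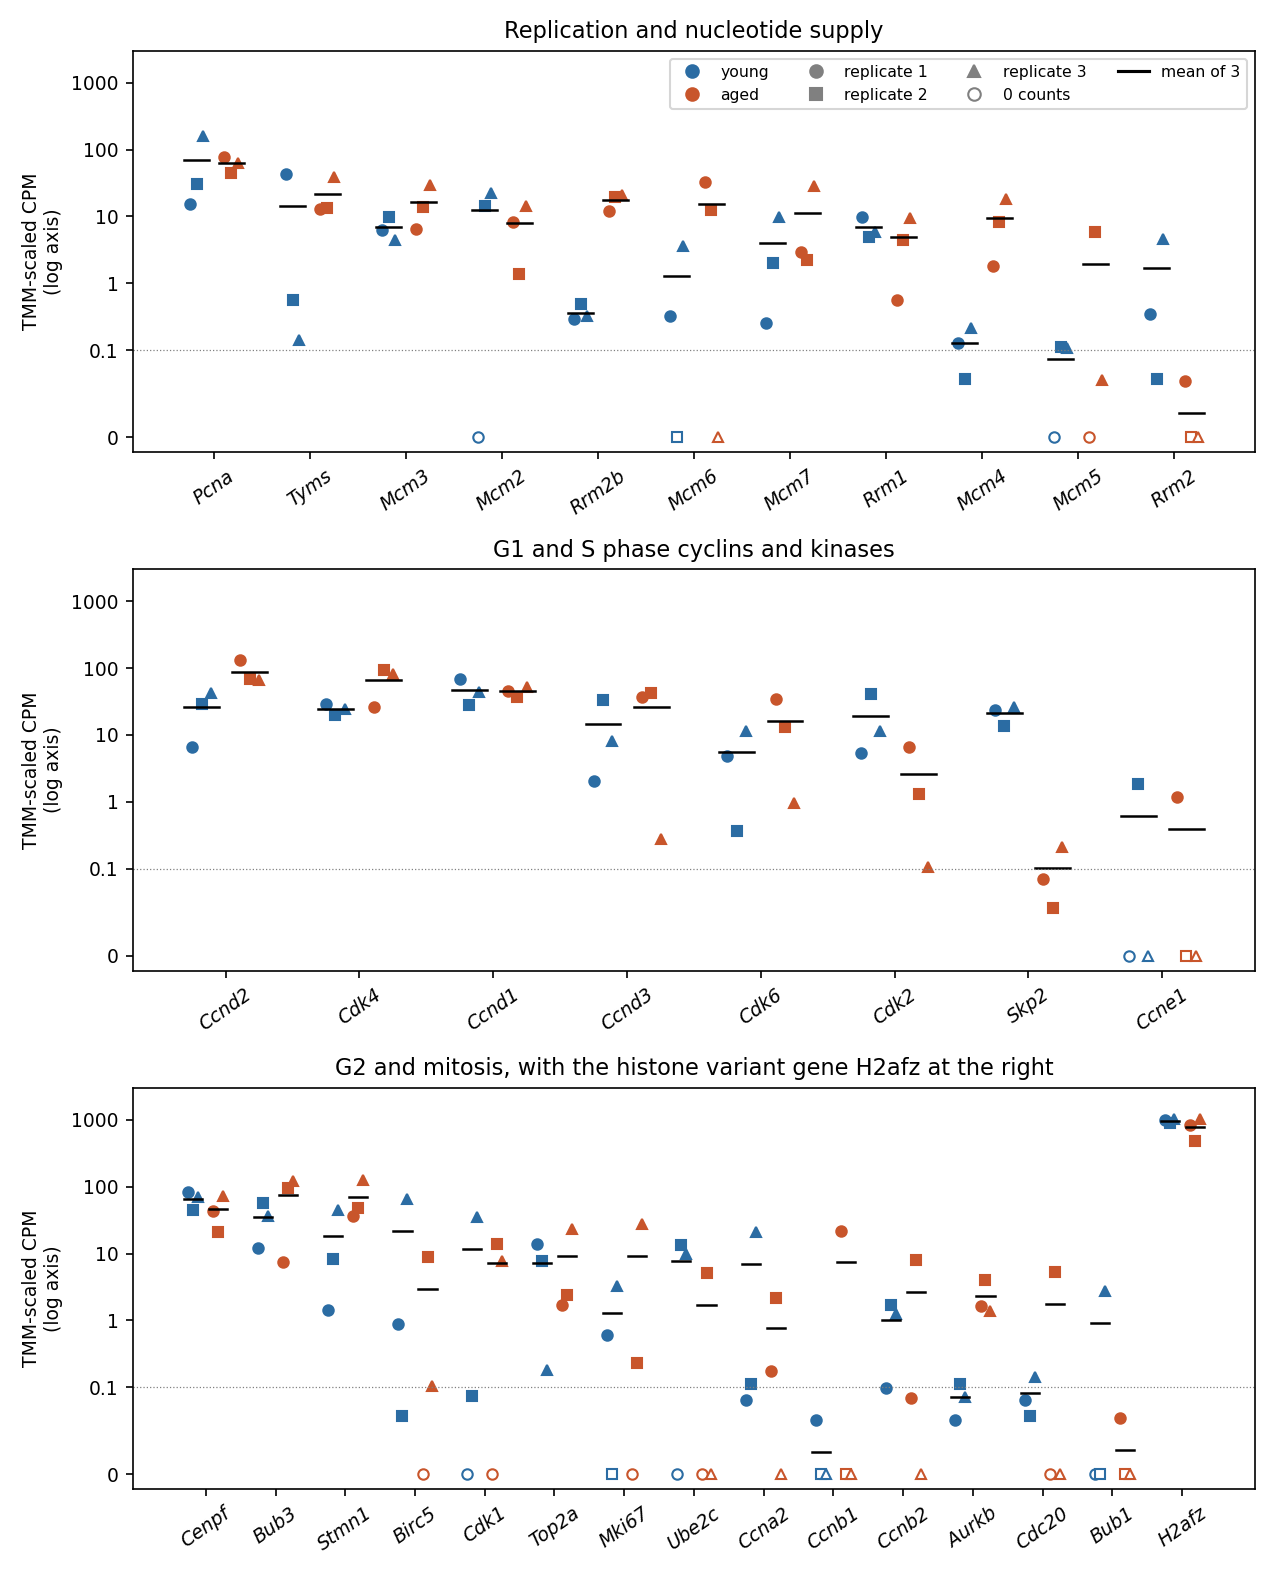
TMM-scaled CPM of each of the 34 genes in each library on a log axis, with 0 drawn at the bottom, blue for young, orange for aged, a marker shape for each replicate number a bar for the mean of 3 and a dotted line near the floor of 3 counts per library. Rrm2b, Mcm4, Aurkb and Ccnd2 are the tested genes with every aged point above every young one, and Skp2 the one with every aged point below.

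Among the 8 G1 and S phase genes, Skp2 was near its floor in aged libraries, while Ccnd2 and Cdk4 had higher aged means. Of the 7 tested, 0 were called by edgeR, 4 had a fitted difference above 0, and the median was 0.86.

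Skp2 encodes the F-box protein with which the SCF ubiquitin ligase recognises the cycle inhibitor p27 (Cdkn1b) and marks it for destruction. The gene (ENSMUSG00000054115.11, mm10 chromosome 15, 9111985 to 9155425) was at 23.5, 13.5 and 26.3 CPM in young libraries and 0.0695, 0.0259 and 0.212 CPM in aged libraries. The counts were 735, 364 and 736 against 2, 1 and 6, and every aged library was far below every young one. The pooled young level was 227-fold the aged one (95% exact interval 119 to 497, counting error only), and the fitted log2 fold change was -7.65 (SE 1.78, unadjusted p = 0.00175, adjusted p = 0.515 by edgeR). DESeq2 gave an adjusted p of 5.22e-07, and the adjusted p ran from 2.94e-10 to 0.914 over 14 settings. The direction was kept in all of them, and the fitted value ran from -8.69 to -2.42, the latter on the log2(TPM + 1) scale, which shrinks low genes.

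The ligase partners and the substrate of Skp2 are known, and their RNA levels were read from other lists. Cul1, the scaffold of the SCF ligase, was at 51.5, 38.8 and 59.6 CPM in young libraries and 133, 82.6 and 280 CPM in aged libraries. These groups did not overlap, and the fitted log2 fold change was 1.73 (SE 0.51, unadjusted p = 0.00749, adjusted p = 0.619 by edgeR). Skp1a, the adaptor that holds the F-box protein, ranged from 508 to 621 CPM in young libraries and from 319 to 659 CPM in aged libraries. Rbx1, the RING subunit, ranged from 751 to 928 CPM in young libraries and from 340 to 769 CPM in aged libraries. Cdkn1b, named after its values were seen, ranged from 1.72 to 9.38 CPM in young libraries and from 0.660 to 4.81 CPM in aged ones, a fitted log2 difference of -1.17 (SE 1.74).

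Ccnd2 encodes cyclin D2. The gene (ENSMUSG00000000184.12, mm10 chromosome 6, 127125162 to 127152193) was at 6.5, 29.2 and 42.4 CPM in young libraries and 130, 69.5 and 65.6 CPM in aged libraries. All aged libraries were above all young ones, with young replicate 1 the lowest by far. The means were 26 ± 18.1 and 88.5 ± 36.3 CPM (SD, n = 3 each), and the fitted log2 fold change was 1.77 (SE 0.72, unadjusted p = 0.0352, adjusted p = 0.817 by edgeR).

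The other D-type cyclins are partners of the same kinases, and neither separated the ages. Ccnd1 was at 67.6, 28.3 and 43.4 CPM in young libraries and 45.9, 37.4 and 52.3 CPM in aged libraries, a fitted log2 difference of -0.04 (SE 0.58). Ccnd3 was at 2.08, 33.4 and 8.26 CPM in young libraries and 37.2, 42.0 and 0.283 CPM in aged libraries, so that the aged group held both its highest and its lowest library.

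Cdk4, the kinase that D-type cyclins activate, was at 28.7, 20.2 and 24.6 CPM in young libraries and 26.4, 93.3 and 82.3 CPM in aged libraries. Aged replicates 2 and 3 were high, and aged replicate 1 lay within the young range. The fitted log2 fold change was 1.46 (SE 0.65, unadjusted p = 0.0488, adjusted p = 0.869 by edgeR). Tspan31 overlaps Cdk4 (ENSMUSG00000006728.12, mm10 chromosome 10, 127063534 to 127067920) on the opposite strand and had 25316 counts against 8818 for Cdk4, so their shared reads cannot be told apart. Cdk6, the second kinase of the D-type cyclins, was at 4.93, 0.372 and 11.6 CPM in young libraries and 35.1, 13.1 and 0.954 CPM in aged libraries, which overlap.

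Cdk2 and cyclin E1 act next, at the entry into S phase. Cdk2 was at 5.32, 40.5 and 11.3 CPM in young libraries and 6.5, 1.30 and 0.106 CPM in aged libraries, a fitted log2 difference of -2.85 (SE 1.73, unadjusted p = 0.131, adjusted p = 0.944 by edgeR). Only aged replicate 1 reached the young range. Ccne1 was too low to test, with 49 counts in young replicate 2, 34 in aged replicate 1 and 0 in the other 4 libraries.

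The 14 G2 and mitosis genes were mostly found in 1 or a few libraries of either age. Of the 10 tested, 0 were called by edgeR, 6 had a fitted difference above 0, and the median was 0.72. Aurkb was the only one whose groups did not overlap.

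Aurkb encodes Aurora kinase B, the kinase of the chromosomal passenger complex, which corrects the attachment of chromosomes to the spindle. The gene (ENSMUSG00000020897.12, mm10 chromosome 11, 69045647 to 69051664) was at 0.0320, 0.112 and 0.0715 CPM in young libraries and 1.63, 3.96 and 1.38 CPM in aged libraries. The counts were low throughout: 1, 3 and 2 in young libraries against 47, 153 and 39 in aged libraries. The pooled aged level was 35.8-fold the young one (95% exact interval 16.2 to 98.6, counting error only), and the fitted log2 fold change was 4.95 (SE 1.63, unadjusted p = 0.0132, adjusted p = 0.691 by edgeR). DESeq2 gave no adjusted p with the edgeR filter and 0.000366 without it, and the adjusted p ran from 0.000366 to 0.952 over 12 settings.

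Birc5 encodes survivin, which sits in the same complex as Aurora kinase B, and it did not share the pattern of Aurkb. It was at 0.897, 0.0372 and 65.0 CPM in young libraries and 0, 8.78 and 0.106 CPM in aged libraries. Young replicate 3 held 86.9% of its summed level, and the fitted log2 fold change of -2.89 (SE 2.63) became 2.65 without that library. Cdk1, the kinase that drives mitosis, was at 0, 0.0744 and 35.4 CPM in young libraries and 0, 14.1 and 7.78 CPM in aged libraries. Its fitted log2 fold change of -0.70 (SE 2.61) became 7.49 without young replicate 3. The cyclins that pair with Cdk1 were as scattered: Ccnb1 held 635 counts in aged replicate 1, 1 in young replicate 1 and 0 elsewhere, and Ccna2 held 583 in young replicate 3, 83 in aged replicate 2 and 0 to 5 elsewhere. Exosc9 overlaps Ccna2 on the opposite strand and had 5983 counts over all libraries against 676 for Ccna2, so their shared reads cannot be told apart. Ccnb2, which was tested, held 0 to 46 counts in 5 libraries and 310 in aged replicate 2.

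Mki67, the proliferation marker that coats mitotic chromosomes, ranged from 0 to 3.22 CPM in young libraries and from 0 to 27.6 CPM in aged libraries, and aged replicate 3 held 87.2% of its summed level. Top2a, the topoisomerase that untangles chromosomes, ranged from 0.179 to 14 CPM in young libraries and from 1.70 to 23.6 CPM in aged libraries. Neither gene separated the ages. Ube2c and Cdc20 serve the anaphase-promoting complex, the ligase that ends mitosis. Ube2c had 0 counts in young replicate 1 and aged replicates 1 and 3, with 200 to 359 counts in the others. Cdc20 held 201 counts in aged replicate 2 and 0 to 4 elsewhere, and Bub1, a spindle checkpoint kinase, held 77 in young replicate 3 and 0 to 1 elsewhere. Elovl1 overlaps Cdc20 on the opposite strand and had 24006 counts over all libraries against 208 for Cdc20, so their shared reads cannot be told apart.

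Of the 14 mitosis genes, 4 exceeded 3 counts in every library: Top2a, given above, and Cenpf, Bub3 and Stmn1. Cenpf, a kinetochore protein, was at 82.3, 45.3 and 71.0 CPM in young libraries and 43.8, 20.8 and 73.0 CPM in aged libraries. Bub3, a checkpoint protein that also has roles outside mitosis, was at 12.2, 56.5 and 36 CPM in young libraries and 7.40, 94.4 and 123 CPM in aged libraries. Stmn1, stathmin, a protein that destabilises microtubules, was at 1.44, 8.19 and 44.7 CPM in young libraries and 36.1, 48.2 and 127 CPM in aged libraries. In all 3 the groups overlapped. For Stmn1 the overlap was 1 young library over 1 aged library, and the fitted log2 fold change was 1.96 (SE 1.09, unadjusted p = 0.105, adjusted p = 0.933 by edgeR).

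H2afz encodes the histone variant H2A.Z, which is placed in chromatin at any stage of the cycle, unlike the core histones made in S phase. It was the most abundant of the 34 genes at 938 TPM, followed by Ccnd2 at 43.7 TPM and Cdk4 at 34 TPM. It was at 988, 900 and 1022 CPM in young libraries and 823, 485 and 1011 CPM in aged libraries. Aged replicate 2 was the low one, the groups overlapped, and the fitted log2 fold change was -0.33 (SE 0.33). A transcript of Tmcc1 matches H2afz over 682 bases at 99.9% identity and Tmcc1 had 18287 counts against 154617, so their split is uncertain.

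The scatter was described by the share of each gene's summed CPM that its highest library held, where an even split gives 16.7%. Over 50% came from 1 library for 17 of the 34 genes, 10 of the 27 tested (37.0%, against 21.8% of all genes tested). Over 90% came from 1 library for Mcm5, Rrm2, Ccnb1, Bub1 and Cdc20, none of which passed the filter. Among genes tested the median share was 51.4% for 10 mitosis genes, 41.0% for 9 replication genes and 38.0% for 7 G1 and S phase genes, against 36.5% over all genes tested. In 18 of the 34 genes at least 1 library held 3 counts or fewer. Among those tested this was 40.7%, against 35.5% of all genes tested.

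**Figure D4:**
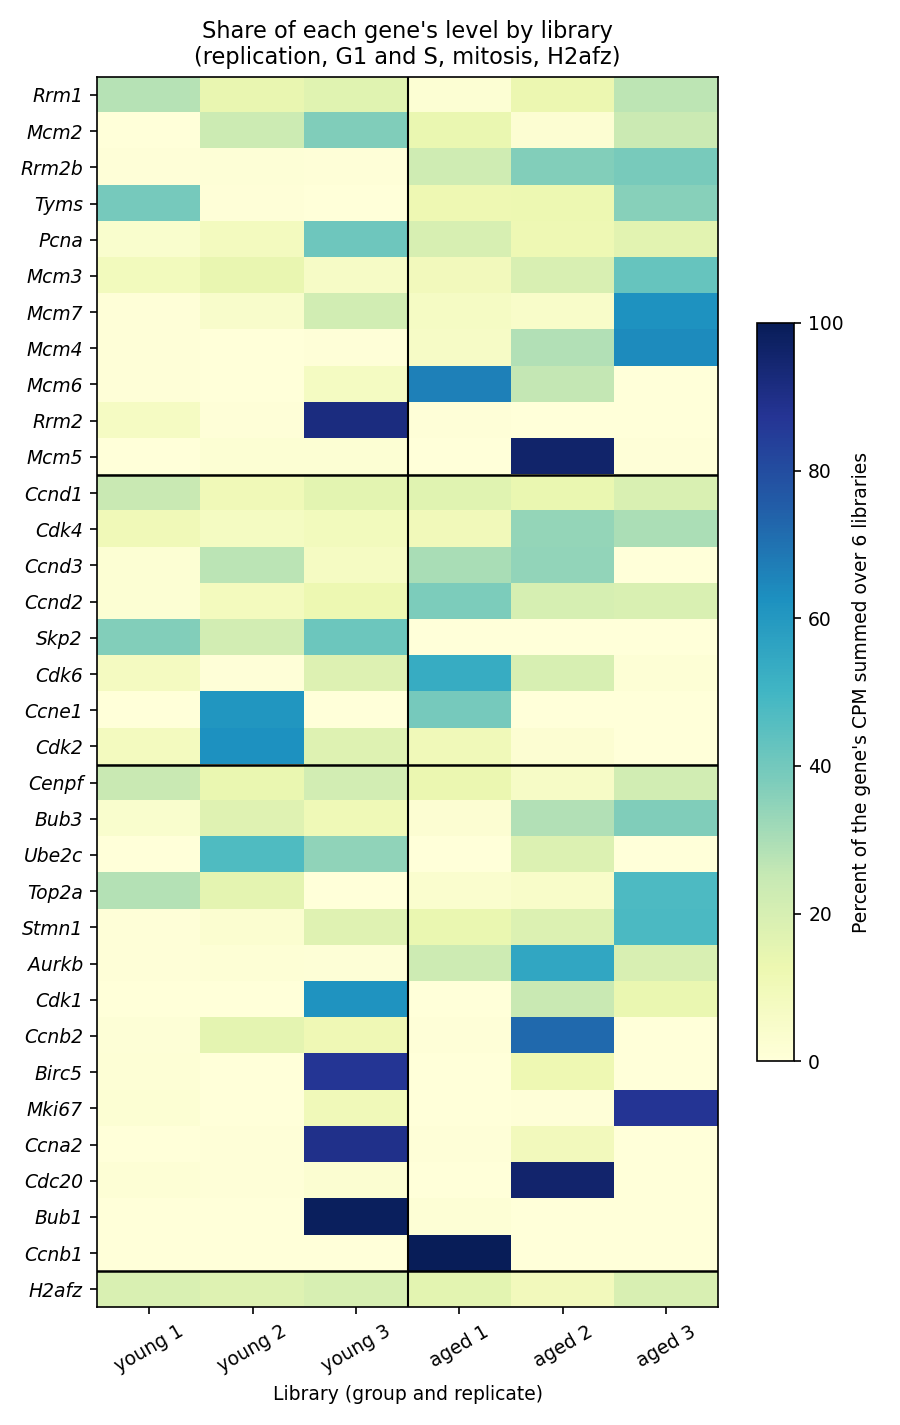
Percent of each gene's summed CPM held by each of the 6 libraries (colour, 0 to 100), with genes in rows by role and libraries in columns. Dark single cells such as Ccnb1 in aged replicate 1 (99.9%) and Bub1 in young replicate 3 (98.8%) contrast with the even row of H2afz, whose highest library held 19.5%.

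The libraries with dark cells were of both ages. Without Cenpf, Bub3 and Stmn1, which of the other 11 mitosis genes exceeded 3 counts differed between libraries of the same age. The numbers were 3, 3 and 9 genes in young libraries and 4, 9 and 4 in aged libraries. By TPM the leading gene of these 11 was Top2a in young replicate 1 and aged replicate 3, Cdk1 in young replicate 3 and aged replicate 2, Ube2c in young replicate 2 and Ccnb1 in aged replicate 1.

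Summed over each role, replication and mitosis genes overlapped between ages, and G1 and S phase genes did not unless Ccnd2 was left out. Replication genes summed to 75.4, 63.2 and 213 CPM in young libraries and 156, 126 and 224 CPM in aged libraries, a ratio of means of 1.44, which was 2.43 without young replicate 3. Without Pcna they summed to 60.1, 32.3 and 51.8 CPM in young libraries and 77.9, 81.5 and 160 CPM in aged libraries, with no overlap and a ratio of 2.22. Pcna is the most abundant gene of the set, and it was left out after its values were seen.

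G1 and S phase genes summed to 139, 167 and 168 CPM in young libraries and 283, 257 and 202 CPM in aged libraries. The means were 158 ± 16.7 and 247 ± 41.4 CPM (SD, n = 3 each), a ratio of 1.56 that was 2.88 in TPM. Ccnd2, the most abundant gene of this set, gave 26 CPM of the young mean and 88.5 CPM of the aged mean. It was the only tested gene of the set with every aged library above every young one. With Ccnd2 taken off each sum, after its values were seen, the ages overlapped. Aged replicate 3 (202 CPM, of which 65.6 CPM was Ccnd2) then lay below young replicate 2 (167 CPM, of which 29.2 CPM was Ccnd2). The separation is therefore not shown for the other genes of this role. Mitosis genes summed to 112, 133 and 290 CPM in young libraries and 113, 213 and 383 CPM in aged libraries, a ratio of 1.33 that was 0.915 without aged replicate 3. Without Cenpf, Bub3 and Stmn1, left out after their values were seen, the sums were 15.8, 23.2 and 139 CPM against 25.7, 50.1 and 60.5 CPM, a ratio of 0.767. These 4 ratios are descriptions with no test.

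**Figure D5:**
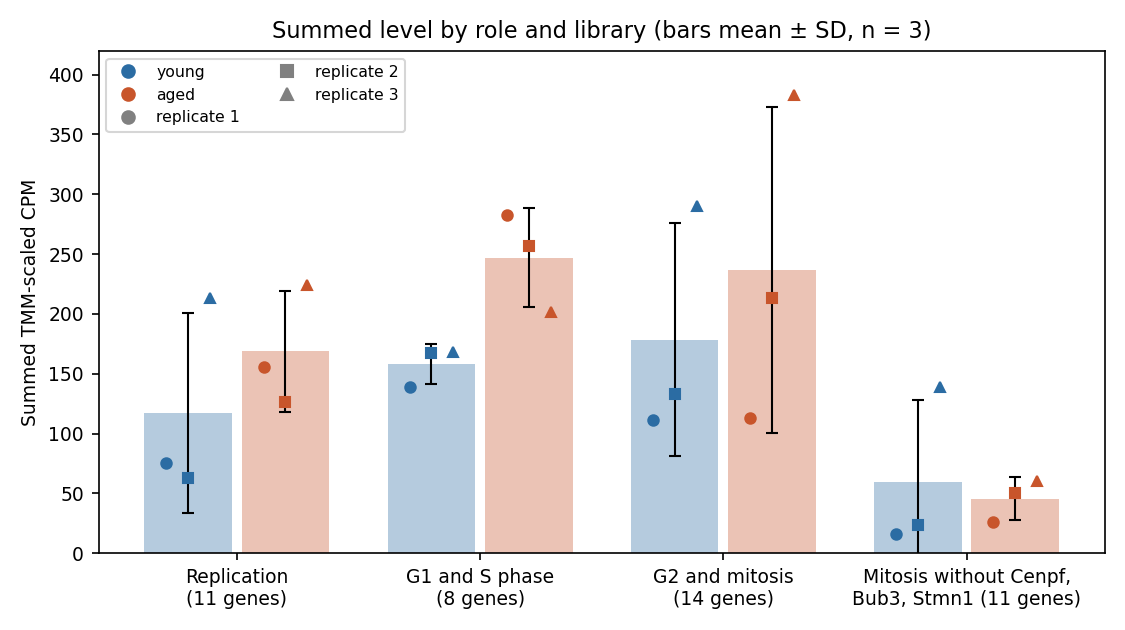
Summed TMM-scaled CPM by role in each library (points) with the mean and SD of 3 libraries (bars), young in blue and aged in orange. With Ccnd2 included, the aged G1 and S phase points, at 202 to 283 CPM, lie above the young ones at 139 to 168 CPM. In the other sets the ages overlap.

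Set against each other, replication and mitosis sums gave ratios of 0.675, 0.475 and 0.734 in young libraries and 1.38, 0.591 and 0.586 in aged libraries. Aged replicate 1 alone was above the young range, and the other aged libraries lay within it. The means were 0.628 ± 0.136 and 0.851 ± 0.455 (SD, n = 3 each). In TPM the order of the means was the other way, at 1.47 ± 1.29 in young and 1.12 ± 0.599 in aged libraries. It was also the other way without Rrm2b, Pcna and Cenpf, at 0.875 ± 1.00 and 0.575 ± 0.334.

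The libraries with the highest mitosis sums in CPM in each group, young replicate 3 and aged replicate 3, also had the highest levels of choroid plexus epithelium markers. The 7 markers, with Ttr the first of them, summed to 11885 and 8182 CPM in these libraries and to 569 to 1381 CPM in the other 4. In TPM the highest aged mitosis sum was in aged replicate 2, at 128 TPM against 118.5 TPM in aged replicate 3. Aged replicate 2 had the lowest choroid plexus marker sum, 569 CPM. The part of these markers in the mitosis sums was not tested. Microglia markers (11 genes) summed to 5822 to 8381 CPM in young libraries and 11031 to 18324 CPM in aged libraries. Border macrophage markers (11 genes) summed to 24081 to 27385 CPM in young libraries and 7800 to 16639 CPM in aged libraries. Erythroid markers (8 genes) summed to 10100 to 30362 CPM in young libraries and 85.8 to 9863 CPM in aged libraries, and these last 3 lists separated the ages as Rrm2b, Mcm4, Aurkb, Ccnd2, Skp2 and the G1 and S phase sum did. Their part in those differences was not tested.

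Neutrophil markers (11 genes) ranged from 6.65 CPM, in aged replicate 3, to 37860 CPM, in young replicate 1, and overlapped between ages. Dividing granulocyte precursors were sought by 7 markers, of which Elane, Prtn3 and Ctsg were at 0 in every library and Mpo had 1 count in 1 library, with a summed level of at most 15.1 CPM. T and NK cell markers (10 genes) summed to 8.20 to 147 CPM with overlap. B cell markers (7 genes) summed to 150 to 196 CPM in young libraries and 203 to 235 CPM in aged libraries, so that this list also separated the ages.

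Other genes of the same pathways gave 0 calls by edgeR. Of 57 further replication genes, 41 were tested, 0 reached an unadjusted p under 0.05, 27 had a fitted difference above 0, and the median was 0.55. In 8 of the 41 (19.5%) every aged library was above every young one, and in 0 below, against 7.54% and 7.19% of all genes tested. The 3 with the smallest p were Rfc2, Rpa2 and Orc5. Rfc2, a subunit of the clamp loader, was at 0, 3.31 and 7.80 CPM in young libraries and 11.7, 60.6 and 69.5 CPM in aged libraries (log2 fold change 3.67, SE 1.66, adjusted p = 0.883 by edgeR). Rpa2, of the complex that coats single-stranded DNA, was at 0, 0 and 5.08 CPM in young libraries and 34.7, 17.8 and 57.3 CPM in aged libraries. Orc5, of the origin recognition complex, was at 0.192, 15.9 and 9.16 CPM in young libraries and 44.4, 42.9 and 24.8 CPM in aged libraries. Pole4 and Rpa3, named for their mean CPM, overlapped between ages, with fitted log2 differences of -0.55 (SE 0.43) and -0.08 (SE 0.52).

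Of 62 further mitosis genes, 19 were tested, 0 reached an unadjusted p under 0.05, 8 had a fitted difference above 0, and the median was -0.03. Every aged library was above every young one in 1 of 19 (5.26%) and below in 1 (5.26%), against 7.54% and 7.19% of all genes tested. Tubb5, a tubulin, was at 87.3, 94.4 and 96.9 CPM in young libraries and 156, 108 and 131 CPM in aged libraries, with no overlap (log2 fold change 0.51, SE 0.36). Cenpa, the centromeric histone, ranged from 13.0 to 50.01 CPM in young libraries and from 0 to 12.7 CPM in aged libraries, and was the 1 gene of the list with every aged library below. Cks2, a partner of cyclin-dependent kinases, ranged from 39.2 to 72.6 CPM in young and from 22.4 to 49.6 CPM in aged libraries. Pttg1, securin, ranged from 156 to 288 CPM in young and from 99.9 to 271 CPM in aged libraries.

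All 22 further subunits of the anaphase-promoting complex and SCF ligases were tested, 7 had a fitted difference above 0, and the median was -0.41. Cul1, described above, was the 1 gene of the 22 at an unadjusted p under 0.05, against 5.67% of all genes tested by edgeR. Every aged library was above every young one in 2 of 22 (9.09%) and below in 2 (9.09%), against 7.54% and 7.19% of all genes tested. Fbxw11, another F-box protein, ranged from 27.8 to 56.5 CPM in young libraries and from 8.78 to 27 CPM in aged libraries, without overlap. Cdc27, a subunit of the anaphase-promoting complex, ranged from 9.61 to 62.6 CPM in young and from 3.96 to 24.7 CPM in aged libraries.

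Of 34 cycle inhibitors, pocket proteins and E2F genes, 26 were tested, 11 had a fitted difference above 0, and the median was -0.24. The genes at an unadjusted p under 0.05 were all higher in aged libraries: Cdkn2d, Cdkn1a and E2f8, the last of which is named outside the rule because it completes this count. These are 3 of 26, against 3.63% higher and 2.04% lower of all genes tested by edgeR. Every aged library was above every young one in 4 of 26 (15.4%) and below in 1 (3.85%). Over all genes tested these shares were 7.54% and 7.19%. Cdkn2d, the Cdk4 and Cdk6 inhibitor p19, was at 0.384, 1.38 and 1.14 CPM in young libraries and 11.1, 9.46 and 52.6 CPM in aged libraries (log2 fold change 4.65, SE 1.49, adjusted p = 0.663 by edgeR). Cdkn1a, the p53-induced inhibitor p21, was at 7.68, 4.24 and 13.0 CPM in young libraries and 43.8, 17.0 and 60.9 CPM in aged libraries (2.29, SE 0.92, adjusted p = 0.808 by edgeR). In both genes every aged library was above every young one. E2f8, a repressor of the E2F family, was at 0.0320, 0.0372 and 0 CPM in young libraries and 4.10, 0.415 and 0.707 CPM in aged libraries.

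Lin52, a subunit of the complex that controls mitotic genes through the CHR, was at 7.27, 0 and 0 CPM in young libraries and 21, 30.5 and 35.9 CPM in aged libraries. Rb1, the retinoblastoma protein, ranged from 51.1 to 126 CPM in young and from 53.1 to 105 CPM in aged libraries. Btg1, an antiproliferative factor, ranged from 171 to 204 CPM in young and from 137 to 206 CPM in aged libraries. Where a library is at 0 the fitted fold change depends on the prior count that edgeR adds.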

How the data were processed

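The tables hold, per gene, estimated counts and TPM that the authors deposited, 1 table for each library. Per the submitters' processing notes the genome build was mm10 and the tools named include bcl2fastq 2.20, fastp and DRAGEN. The roles of the tools, the annotation and its use of strand are not stated in the sources used. Identifiers were matched to GENCODE M21 (35513 of 35598), and counts were rounded to whole numbers. The main test was edgeR 4.0.16 (R 4.3.3) across all genes: filterByExpr by group, TMM scaling, robust quasi-likelihood fit, aged against young with no covariate, Benjamini-Hochberg adjustment. It was tested on simulated data first. Alternatives were DESeq2 1.42.0, limma 3.58.1 (voom, and log2(TPM + 1)), other filters and scalings, a replicate block and leaving out each library. A level is a TMM-scaled CPM, and the cell cycle genes were ranked by abundance in TPM. Sums by role, the ratios of these sums and the choice of named genes used CPM, which does not correct for transcript length. Sums and ratios given in TPM are marked as such.

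Values in every library are given for genes averaging 10 CPM or more in either group, called, or at an unadjusted p under 0.05. Of other lists, called genes are named, or else the 3 with the smallest p among genes averaging 10 CPM or more and the 2 with the highest mean CPM. The genes, lists and settings were chosen with earlier results of these data known. Library totals of 26605079 to 33306121 put the floor of 3 counts at 0.0777 to 0.112 TMM-scaled CPM. Intervals and floors cover counting error only. They take counts as independent, which copies made by PCR would not be, and leave out the spread between libraries.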

Additional observations from a re-analysis of the deposited data

How the results depend on the processing

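DESeq2 without a filter was added after seeing the data; the rest were planned. The 1 higher and 0 lower call over all genes became 117 and 41 in DESeq2, 270 and 187 in DESeq2 without a filter, 51 and 11 in edgeR without a filter, 19 and 6 in genes averaging 50 CPM or more, and 0 and 0 in limma-voom, where 936 genes had an unadjusted p under 0.05. Leaving out a library gave 0 to 2 higher and 0 to 1 lower. Calls among the 34 cell cycle genes, 0 and 0, became 2 and 1 in DESeq2 and 3 and 1 in DESeq2 without a filter, and stayed at 0 in each other setting, leaving out each library included. The replicate block gave 1 gene higher and 0 lower and 0 of the 34. Libraries of the same number had correlations of deviations from their group means of -0.0097, -0.026 and 0.022 for numbers 1, 2 and 3. With 3 libraries per group these cannot show whether a number marks a shared batch.

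The median log2 fold change of the 27 cell cycle genes tested, 0.86, was 0.61 with the replicate block. It was -0.11 over the 5 cell cycle genes averaging 50 CPM or more. Leaving out a library gave -0.16 to 1.28, where 28 to 30 cell cycle genes passed the filter. On log2(TPM + 1) it was 0.49 over 24 cell cycle genes, where the median of all genes was 0.22 in place of -0.02. These medians thus come from differing sets of genes. The G1 and S phase ratio was 2.88 in TPM and the young replication to mitosis ratio 1.47 in TPM and 0.875 without Rrm2b, Pcna and Cenpf. Leaving out a library gave 4 to 8 of the 27 tested (14.8% to 29.6%) not overlapping upward and 1 to 4 (3.70% to 14.8%) downward, against 11.2% to 14.1% and 11.8% to 13.3% of all genes tested. It gave sum ratios of 1.17 to 2.43 for replication, 1.45 to 1.71 for G1 and S phase and 0.915 to 1.93 for mitosis, and replication to mitosis ratios of 0.575 to 0.704 in young and 0.589 to 0.984 in aged libraries.

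Fitted log2 fold changes reversed in 7 of the 22 genes with values given for every library; Rrm1, Mki67, Top2a, Ccnb2 and Ube2c, also tested, were not counted. In limma-voom Mcm2 was 1.59, Pcna 0.52 and Cdk1 1.83. On log2(TPM + 1) Pcna was 0.30, Ccnd1 0.20 and Cdk1 0.46, and with the replicate block they were 0.51, 0.041 and 1.57. Leaving out a library gave -1.36 to 0.18 for Mcm2, -0.64 to 3.28 for Mcm7, -0.63 to 1.43 for Pcna, -0.14 to 5.95 for Tyms, -0.30 to 0.34 for Ccnd1, -1.61 to 7.49 for Cdk1 and -8.59 to 2.65 for Birc5. The sign turned without young replicate 3 in Mcm2, Pcna, Cdk1 and Birc5, without aged replicate 3 in Mcm7 and Tyms, without aged replicate 2 in Pcna (0.035) and Ccnd1 (0.085), and without young replicate 1 in Ccnd1. The cause of these changes was not tested.

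In 18 of the 34 genes some library held 3 counts or fewer, so that their fold changes rest on few counts there. The part of depth, 26605079 to 33306121 counts per library, was not tested.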
